A study of Eragrostis tef with 16 samples.

Results

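The 147 genes described here were lower in roots of tef (Eragrostis tef, a tetraploid cereal) at low Ca2+ than in control roots, while their level in shoots stayed within a fixed band. They were taken from a table of 68255 genes. Plants of 1 tef accession were grown hydroponically for about a month with 0.01 mM Ca (low) or 1 mM Ca (control), and RNA of roots and shoots was sequenced. The groups were low Ca2+ roots (LCR), control roots (ConR), low Ca2+ shoots (LCS) and control shoots (ConS), with 4 libraries each, described as independent biological replicates. All plants grew in a modified Hoagland solution in which ammonium nitrate took the place of calcium nitrate. Libraries are called by S numbers: LCR had S1 to S4, ConR had S9 to S12, LCS had S5 to S8 and ConS had S13 to S16.

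Calcium holds pectin together in plant cell walls, steadies membranes and acts as a second messenger that calcium-binding proteins sense. It is taken up by roots and moves to shoots with the water of the xylem, and little of it returns from old leaves. A root therefore faces the solution directly, while a shoot receives what the root passes on.

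The members were selected on their measured values. Levels were in CPM, the reads of a gene as a share of all reads counted in a library, scaled to a total of 1000000. Of 32683 genes with a ConR mean of at least 2 CPM, 3012 had every LCR library below every ConR library. A ratio of LCR to ConR of at most 0.67, with 0.5 CPM added to both means, was met by 1258 of these. Their ratio of LCS to ConS, taken the same way, was under 0.67 in 264, above 1.5 in 172 and between these limits in 822. The 150 of the 822 with the lowest root ratio were taken, and 3 that the study had named were set aside, which left 147. The last gene taken had a root ratio of 0.458, and the next gene left out had 0.462, so the edge of the set is no gap in the data. The deposited table holds identifiers without names, so the function of the members, and markers of root and shoot cells, were not looked up here. Levels are compared between groups for the same gene only, since gene lengths were not used.

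Library totals were 6276818 to 10166944 reads in LCR, 11587068 to 17659238 in ConR, 9959542 to 11720368 in LCS and 14640539 to 15590039 in ConS. Among the genes with at least 2 CPM in ConR, ConR S11 was the lowest of the 4 ConR libraries in 39.4% and the highest in 34.9%, and ConR S12 was the lowest in 28.3% and the highest in 31.0%. In low Ca2+ roots, LCR S3 was the highest of its group in 40.1% of these genes. Several root ratios that rest on ConR S11 are given with and without it. Sums over the members and most fitted values are given with all libraries only.

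By the choice of genes, the root levels fell together. Summed over the 147 members, LCR libraries held 2264 to 4212 CPM, against 7962 to 12257 CPM in ConR libraries. LCS libraries held 828.9 to 1151 CPM, against 984 to 1062 CPM in ConS libraries, so the shoot ranges overlapped. A single member, Et_6A_046619, carried much of the root sum. Without it, LCR libraries held 1379 to 1905 CPM and ConR libraries 4806 to 6907 CPM. In bulk tissue, fewer cells of a type and less RNA per cell cannot be told apart.

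**Figure D1:**
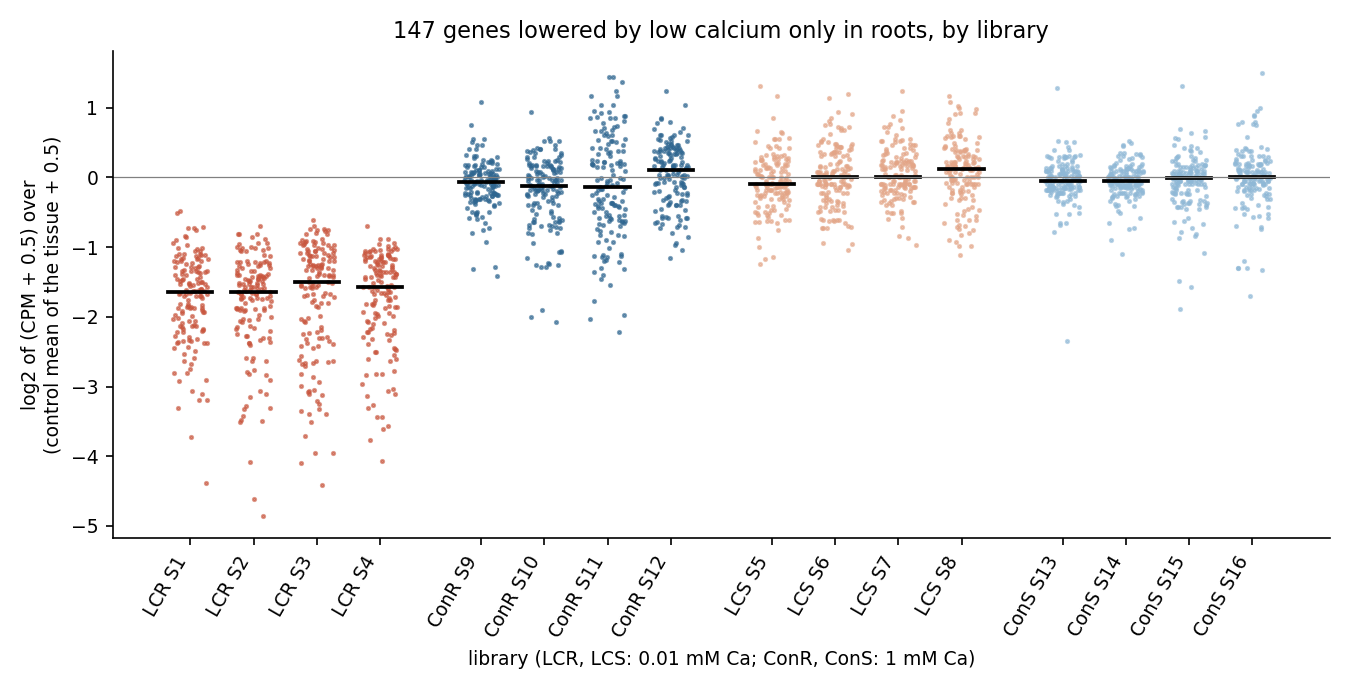
Each point is 1 of the 147 members in 1 library, as the log2 of its CPM plus 0.5 over the control mean of the same tissue plus 0.5, and black bars are medians. The 4 LCR libraries lie well below 0, which the selection fixed, ConR S11 has the widest spread of the ConR libraries, and the LCS libraries lie around 0.

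The root ratio of the members ran from 0.0541 to 0.458 with a median of 0.344, against a median of 0.953 over all genes with at least 2 CPM in ConR. It was below 0.125 in 10 members and below 0.25 in 33. The shoot ratio ran from 0.671 to 1.49 with a median of 1.03, against 1.11 over the same background and 0.908 over the 822 eligible genes. The separation in roots was often narrow. With 0.5 CPM added to both, the lowest ConR library was 1.01 to 3.37 times the highest LCR library, with a median of 1.48 and a factor of at least 2 in 23 members. The members also varied more between root libraries than the background genes did. Their median coefficient of variation was 37.1% in LCR and 34.6% in ConR, against 17.0% and 19.9% over the background. The LCR values compare unlike levels, as the median LCR level was 3.13 CPM in the members and 12.2 CPM in the background. The 822 eligible genes, which include the members, had 19.4% in LCR and 16.7% in ConR. The next 150 eligible genes by root ratio had 18.7% and 20.2%. Median levels of these sets were 7.78 and 7.65 CPM in LCR, and 14.6 and 14.9 CPM in ConR. The members had 11.6 CPM in ConR. The 150 genes raised only in roots by the mirror of the rule had 24.9% in LCR and 45.0% in ConR. Their median ConR level was 2.53 CPM, so their ConR value also compares unlike levels. Why the members varied more than the eligible genes was not tested.

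The shoot level differed widely among the members. In 68 of the 147 members (46.3%) the LCS and ConS means were both under 0.5 CPM, against 4.6% of the genes with at least 2 CPM in ConR and 12.8% of the 822 eligible genes. In these 68, the added 0.5 CPM limits how far the shoot ratio can move from 1, so they were barely detected in shoots rather than measured as steady there. A ConS mean of at least 2 CPM was found in 47 members (32%), against 76.7% of the background and 73.1% of eligible genes. The other 32 lay between. The shoot response could therefore be measured mainly in the 47. Their shoot ratio ran from 0.671 to 1.49 with a median of 0.968. The median was 0.908 over the 822 eligible genes, and 1.11 over the background, which had no band on this ratio. The root ratio of the 47 had a median of 0.397, against 0.320 in the 68.

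**Figure D2:**
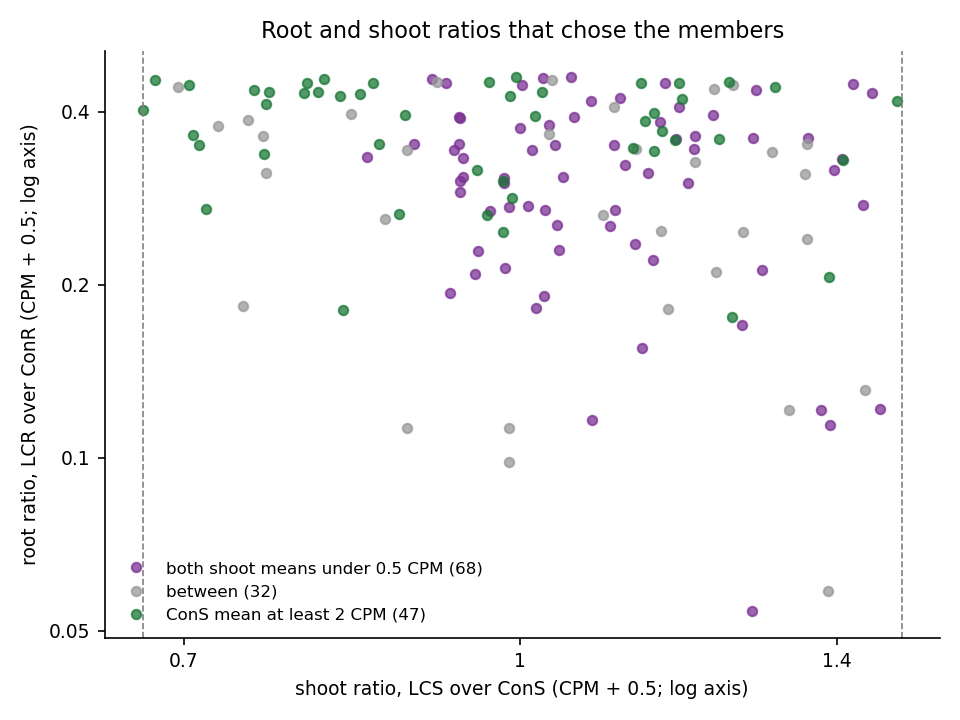
Root ratio (LCR over ConR) against shoot ratio (LCS over ConS) of the 147 members, both with 0.5 CPM added and on log axes, coloured by the level in shoots. Dashed lines are the limits 0.67 and 1.5 that the rule set on the shoot ratio. The members under 0.5 CPM in both shoot groups lie between shoot ratios of 0.850 and 1.47, and those with at least 2 CPM in ConS between 0.671 and 1.49.

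The 2 members with the lowest root ratio, Et_1B_010594 and Et_1A_005785, had by far their highest level in ConR S11. Et_1B_010594 had 2.87, 1.03, 1.57 and 2.14 CPM in LCR S1 to S4, against 17.6, 10.6, 119.8 and 27.5 CPM in ConR S9 to S12. Et_1A_005785 had 1.91, 1.54, 2.75 and 3.60 CPM in LCR, against 19.6, 12.97, 136.1 and 30.2 CPM in ConR. In both genes every ConR library was above every LCR library, which the rule required, and S11 was far above the other ConR libraries. Their root ratios were 0.0541 and 0.0588, and without ConR S11 they were 0.126 and 0.138. In shoots, Et_1B_010594 averaged 0.50 ± 0.311 CPM in LCS and 0.281 ± 0.0759 CPM in ConS (SD, n = 4 each). Et_1A_005785 averaged 0.884 ± 0.533 CPM in LCS and 0.498 ± 0.25 CPM in ConS (SD, n = 4 each). The pair carries the labels of the A and B copies of the same chromosome. Whether they are copies of each other was not tested, and reads of near-identical copies may be split between them or lost to counting of unique reads.

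ConR S11 was the highest ConR library in 55 members and ConR S12 in 56, but S11 lay further out, in both directions. It was at least 2 times the mean of the other 3 ConR libraries in 23 members and at most 0.5 times that mean in 26, against 6.24% and 5.02% of the background genes. In no other ConR library did either count exceed 15. In the 23 members the median root ratio was 0.260, and 0.401 without S11. Over all 147 the ratio without S11 had a median of 0.341, and 146 stayed at or below 0.67. The exception, singled out after its values were seen, was Et_2A_016599. It had 0.984 to 1.13 CPM in LCR, against 1.76, 1.64 and 1.64 CPM in ConR S9, S10 and S12 and 7.87 CPM in ConR S11, and its ratio without S11 was 0.728. Applied without ConR S11, the rule took 98 of the 147 again. Without it 1849 genes were eligible, in place of 822. Without LCR S3 1838 were eligible and 121 of the 147 were taken again. Without any other single root library 761 to 982 were eligible. Leaving out a root library also loosens the condition that every LCR library lies below every ConR library.

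**Figure D3:**
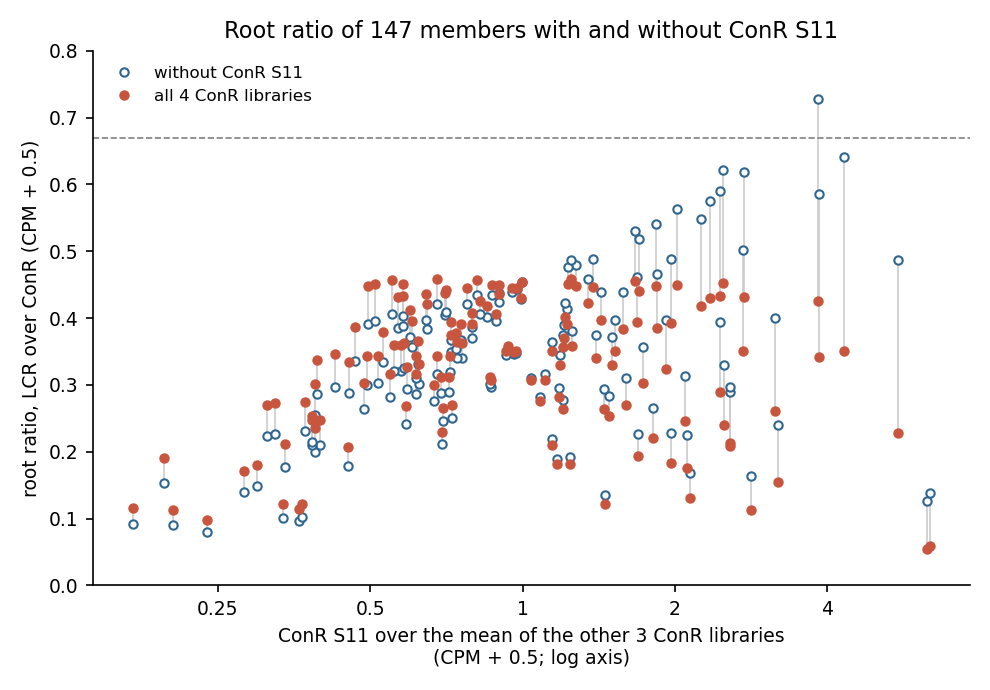
Root ratio of each of the 147 members with all 4 ConR libraries (filled) and without ConR S11 (open), against ConR S11 over the mean of the other 3 ConR libraries (log axis). Members far to the right rise when S11 is left out, and 1 of them passes the dashed limit of 0.67.

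The member with the most reads in control roots was Et_6A_046619, singled out after its values were seen. It had 2307, 2068, 885.4 and 1334 CPM in LCR S1 to S4, against 4132, 3156, 5350 and 3965 CPM in ConR S9 to S12. The highest LCR library lay below the lowest ConR library, which the rule required. Shoots held 15.2 ± 1.81 CPM in LCS and 13.2 ± 0.996 CPM in ConS (SD, n = 4 each), so its level in shoots was low beside that in roots at either calcium level. Et_8A_056874, also singled out in this way, had no read in any LCR library, against 3.44, 4.36, 0.422 and 6.99 CPM in ConR S9 to S12. A count of 0 allows up to 3 reads over the LCR group (0.0855 CPM), so ConR was at least 44.5-fold higher, for counting error only. It had 3 reads in LCS and 2 in ConS.

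The 3 genes that the study had named were first taken by the same rule as the members and then set aside. Their lower level in roots and their shoot ratio within the band were thus required of them, and nothing is read from either. CBP11 and CBP12 (Et_3A_023424 and Et_3B_027891) encode calcium-binding proteins, a class that senses or buffers calcium, and YSL16 (Et_3B_031448) belongs to the yellow stripe-like family, whose members carry chelated metals across membranes. CBP11 had 97.6 ± 20.1 CPM in LCR and 375.7 ± 175.9 CPM in ConR (SD, n = 4 each), with a root ratio of 0.261. CBP12 had 32.6 ± 6.06 CPM in LCR and 119.4 ± 58.1 CPM in ConR, with a ratio of 0.276. YSL16 had 57.9 ± 21.2 CPM in LCR and 193.8 ± 55.2 CPM in ConR, with a ratio of 0.301. In shoots the 3 genes stayed at or below 1.61 CPM in every library. ConR S11 was the lowest ConR library for each, at 177.1, 56.5 and 114.9 CPM.

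Across all genes, edgeR's quasi-likelihood test (Benjamini-Hochberg adjusted p below 0.05 over 56746 genes) was fitted to the 16 libraries with TMM scaling. All 147 members had a count in at least 4 libraries and entered the fit. In LCR vs ConR, 121 members were called lower, where 1.33% of all genes were called lower. This contrast chose the members, so nothing is read from that count. The 26 members that were not called had adjusted p of 0.0523 to 0.116. They had a median of 334.5 reads over the root libraries and a median standard error of 0.493 (log2), against 859 reads and 0.365 for the 121. The median log2 fold change of the members was -1.73, against 0.03 over all genes tested. Leaving out LCR S1, S2 or S4 left 77, 69 or 66 members called. Here and below, counts with a library left out come without the share of all genes called, so nothing is read from their change.

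In LCS vs ConS, 7 members were called in either direction, where 25.8% of all genes were called. The band on the shoot ratio kept this count low. Et_2A_016234 and Et_10A_001836 were higher in LCS, both at few reads. Et_2A_016234 had 0.307 ± 0.138 CPM in LCS and 0.0668 ± 0.0558 CPM in ConS (SD, n = 4 each). Et_10A_001836 had 6 reads in LCS and none in ConS. Of the 5 called lower, Et_3B_029647 and Et_2B_021515 had the lowest adjusted p. Et_3B_029647 had 17.1 ± 4.03 CPM in LCS and 25.8 ± 4.22 CPM in ConS, besides 39.3 ± 2.91 CPM in LCR and 98.5 ± 11.2 CPM in ConR (SD, n = 4 each). Et_2B_021515 had 6.85 ± 1.17 CPM in LCS and 9.94 ± 2.18 CPM in ConS. All 5 had at least 2 CPM in ConS. Of the 47 members at that level, 35 had a negative and 12 a positive log2 fold change in LCS vs ConS, with a median of -0.26. The share of negative values over all genes was not counted, and the sign depends on scaling. In CPM the median shoot ratio of the 47 was 0.968. Over genes with at least 2 CPM in ConR, the median log2 ratio of LCS to ConS was 0.15 in CPM and -0.03 with TMM. The 5 called lower in LCS vs ConS were also called lower in LCR vs ConR, so by this test they were lower at low Ca2+ in both tissues. Without LCS S6 or LCS S8 the count was 4, and without ConR S11 it was 11.

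A gene called in roots and not in shoots is not thereby shown to differ between them. The interaction, LCR vs ConR minus LCS vs ConS, was called lower in 40 members, where 5.2% of all genes were called lower. At an unadjusted p under 0.05 the count was 95, but the share of all genes at that threshold was not taken, so nothing is read from it. Of the 40, 39 were also called lower in roots and 37 of these were not called in shoots. As the interaction is made of the contrasts that chose the members, these counts are a description. "Only in roots" is thus the label of the rule, and for 107 members the difference between tissues did not pass over all genes. Without LCR S2 or ConS S13 the count was 26.

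The comparison of roots with shoots, averaged over both calcium levels, is another contrast than those of the rule, but the rule also used levels. The floor on ConR and the band on the shoot ratio, which genes near 0 in shoots pass easily, both favour root expression, so the counts are a description from which nothing is read. In this comparison 111 members were higher in roots, where 30.9% of all genes were, and 16 were lower in roots, where 27.8% of all genes were. The other 20 were not called. The median log2 fold change was 2.68 over the members, against 0.05 over all genes tested and 0.17 over genes with at least 2 CPM in ConR. Of the genes with at least 2 CPM in ConR, 40.7% were higher and 26.6% lower in roots. The ConR mean was above the ConS mean in 91.8% of the members, against 86.1% of the 822 eligible genes and 78.5% of the genes with at least 2 CPM in ConR. Of the 68 members under 0.5 CPM in both shoot groups, 66 were higher in roots and none was lower, a direction that the split by shoot level fixes. Of the 47 with at least 2 CPM in ConS, 21 were higher and 16 lower in roots, with a median log2 fold change of 0.14. The scaling matters here. Over genes with at least 2 CPM in ConR, the median log2 ratio of roots to shoots was 0.61 on plain totals and 0.15 with TMM.

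**Figure D4:**
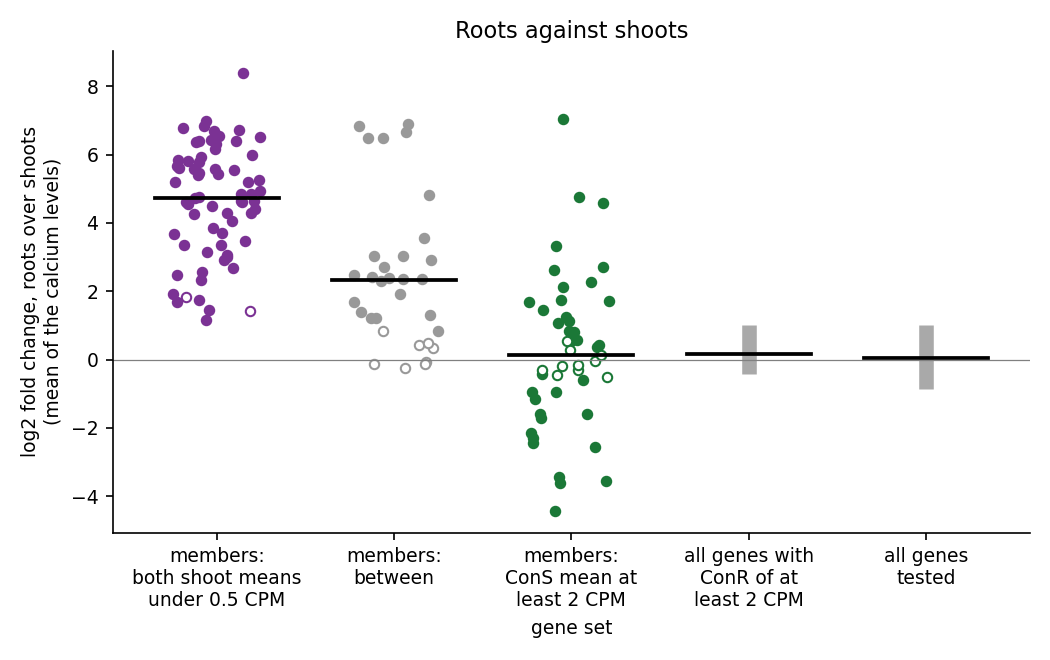
Log2 fold change of roots over shoots, averaged over both calcium levels, for the members by their level in shoots (filled where the edgeR adjusted p was below 0.05, open otherwise, bar at the median) and for the background sets (grey bars from the lower to the upper quartile, black bar at the median). Members with at least 2 CPM in ConS spread to either side of 0 around a median of 0.14.

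Et_3A_023810 and Et_6A_046619 had the largest rise in roots over shoots among the members whose root libraries were all above their shoot libraries. Et_3A_023810 had 7.17, 4.52, 4.13 and 5.74 CPM in LCR, against 13.5, 14.2, 15.3 and 22.1 CPM in ConR. Its shoots held no read in LCS and 2 reads in ConS, against 1075 reads in the 8 root libraries, a ratio of CPM of 610 with an exact 95% interval of 169 to 5047 for counting error only. Et_6A_046619 was higher in roots by 7.04 ± 0.26 (log2, SE). Et_2A_016790 and Et_1B_011468 had the largest fall. Et_2A_016790 had 1.98 ± 0.277 CPM in LCR and 6.76 ± 6.12 CPM in ConR, and shoots held 59.0 ± 20.8 CPM in LCS and 51.1 ± 25.8 CPM in ConS (SD, n = 4 each). It was lower in roots by a log2 fold change of -4.44 ± 0.40 (SE). Its ConR values were 3.68, 2.55, 15.8 and 5.01 CPM in S9 to S12, with S11 the highest, and its LCR vs ConR difference did not pass (edgeR adjusted p = 0.0962). Its root ratio was 0.342, and 0.585 without ConR S11. Et_1B_011468 had 0.679 ± 0.241 CPM in LCR and 2.22 ± 0.768 CPM in ConR, and shoots held 9.47 ± 1.30 CPM in LCS and 12.5 ± 4.46 CPM in ConS (SD, n = 4 each). It was lower in roots by a log2 fold change of -3.60 ± 0.23 (SE).

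Roots stood further above shoots at control calcium than at low calcium, which follows from the choice of genes. ConR vs ConS called 121 members higher in roots, where 28.7% of all genes were called. LCR vs LCS called 77 members higher in roots, where 20% of all genes were called, and 25 lower, where 22.7% were. All 77 were also higher at control calcium. A further 41 were called higher in ConR than ConS and not called at low calcium, and 3 were called lower there. In the opposite direction, ConR vs ConS called 10 members lower in roots, where 23.7% of all genes were called lower. These 10 were lower in roots at both levels, and 12 members at low calcium only. Shares of all genes were not taken for counts that join both levels. Counted by libraries that did not overlap, every ConR library was above every ConS library in 126 members (39.6% of all genes tested). Every LCR library was above every LCS library in 86 (29%) and below in 18 (15.7%). With TMM-scaled totals these counts were 113, 75 and 23.

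In the 3 members called higher in ConR than ConS and lower in LCR than LCS, the order of the tissue means changed with calcium. All 3 were singled out after their values were seen, and the rule required their lower level in LCR than in ConR. Et_3A_024147 had 0.637, 0.514, 0.492 and 0.788 CPM in LCR, against 8.97, 21.1, 2.81 and 10.2 CPM in ConR. Its shoots held 1.13, 3.48, 1.54 and 1.71 CPM in LCS, against 2.02, 1.37, 2.46 and 2.12 CPM in ConS. The shoot libraries thus lay above all LCR libraries and below all ConR libraries, apart from LCS S6. Et_9B_064428 had 0.319, 0.103, 0.885 and 0 CPM in LCR, against 6.81, 6.91, 2.25 and 9.32 CPM in ConR, with 1.37 ± 0.619 CPM in LCS and 0.903 ± 0.911 CPM in ConS (SD, n = 4 each). LCR S3 of Et_9B_064428 lay above its LCS S5 (0.522 CPM), so its low calcium libraries overlapped. Et_3B_029790 had 3.82, 3.18, 4.33 and 4.05 CPM in LCR, against 9.13, 10.8, 13.8 and 12.8 CPM in ConR. Its shoots held 5.39 to 7.68 CPM in LCS and 3.46 to 6.47 CPM in ConS. Its ConR vs ConS difference passed narrowly (edgeR adjusted p = 0.0479). By libraries without overlap at both levels, Et_3A_024147, Et_3B_029790 and Et_2B_021610 changed order, where 0.213% of all genes tested did. With TMM-scaled totals none of the 147 did, so a full change of order rests on the scaling.

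**Figure D5:**
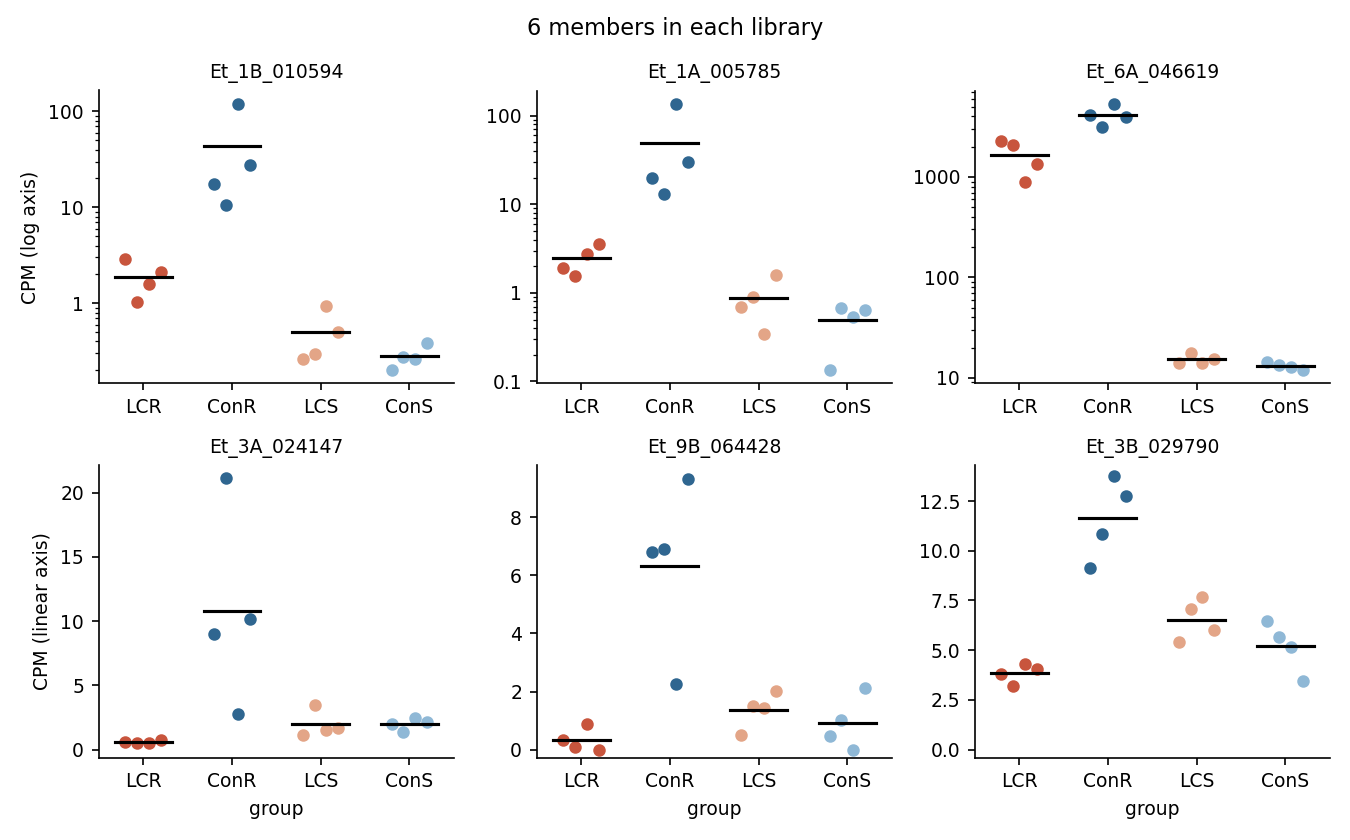
CPM of 6 members in each library of the 4 groups, with bars at the group means. The upper panels have a log axis and show Et_1B_010594 and Et_1A_005785, with ConR S11 at 119.8 and 136.1 CPM, and Et_6A_046619. The lower panels have a linear axis and show the 3 members whose order of tissue means changed with calcium.

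The identifiers carry a chromosome number and a letter for the subgenome. The members split into 71 with A, 75 with B and 1 unplaced, 48.3% and 51.0% for the letters, against 50.2% and 49.4% of the genes with at least 2 CPM in ConR. All 20 chromosome labels occurred, from 3 members on 4A to 11 on 3A. The labels 6A, 6B and 8A had 9 members each (6.12%), against 2.61%, 2.29% and 3.25% of the background, and 4A had 2.04% against 7.15%. No test was run on these shares.

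Members stood in directly neighbouring rows of the table in 7 pairs with 14 genes, against 12 pairs among the 150 genes raised only in roots by the mirror of the rule and 4 pairs among 146 genes lowered in both tissues. Whether the order of rows follows position on the chromosome is not stated. The longest run, singled out after its values were seen, was Et_3B_028238, Et_3B_028239, Et_3B_031051 and Et_3B_028240, 4 members within 5 rows. Et_3B_028238 had 17.8, 20.3, 23.9 and 22.3 CPM in LCR, against 59.1, 63.0, 44.4 and 91.8 CPM in ConR. Et_3B_028239 had 55.0, 50.3, 56.1 and 49.3 CPM in LCR, against 106.5, 108.8, 116.7 and 143.3 CPM in ConR. That LCR and ConR libraries did not overlap was required of every member. Et_3B_031051 averaged 5.29 ± 1.59 CPM in LCR and 16.3 ± 3.41 CPM in ConR, and Et_3B_028240 averaged 8.74 ± 0.180 CPM in LCR and 29.5 ± 7.92 CPM in ConR (SD, n = 4 each). In shoots none of the 4 reached 0.8 CPM in any library. Reads of overlapping neighbours may not be told apart, since a strand setting was used in counting but the kit name does not state that strand was kept.

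Genes chosen for the opposite response give a description to set beside these shares. Of the 150 genes raised only in roots, 60% were under 0.5 CPM in both shoot groups, and 107 were higher and 27 lower in roots in the comparison of tissues. Among the members the share was 46.3%, with 111 higher and 16 lower. Of the 146 genes lowered in both tissues, 16 were higher and 99 lower in roots, but their rule required at least 2 CPM in ConS. No test was made between these sets.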

How the data were processed

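RNA of tef roots and shoots at 0.01 or 1 mM Ca was sequenced in 16 libraries, 4 per group. The authors trimmed the paired-end reads, mapped them to the tef genome by hisat2, and htseq-count gave the number of unique alignments for every gene. The deposited table holds these raw counts, without normalization. FastQC, HISAT2, HTSeq and DESeq2 are named in the submitters' processing notes. Totals per library bound the precision, and intervals cover counting error only, as reads carry no molecular identifiers. P-values rest on the spread between libraries within groups, pooled over all 4 groups and moderated across genes.

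Groups follow the sample labels. CPM are counts over the column total. Members were chosen by the rule given in the report, with 0.5 CPM added to group means. The members and lists were chosen with earlier results of these data known. Tests used edgeR 4.0.16 in R 4.3.3 (TMM, glmQLFit and glmQLFTest, 1 term per group, only genes seen in 4 or more libraries, Benjamini-Hochberg adjusted p below 0.05), and were tested on simulated data. The standard error of a log2 fold change was taken from its F statistic. Alternatives were DESeq2 1.42.0, limma 3.58.1 (voom), other scalings, filters and thresholds, other settings of the rule, and each library left out in turn. The removal of LCR S3 and ConR S11 together was chosen after seeing the data. Named genes are the 2 members with the lowest root ratio, the 2 largest rises and 2 largest falls between tissues, and the 3 genes the rule set aside. Others were chosen after their values were seen. Tables and figures were made with Python 3.11.15. No genome or annotation was used here, and no sequences are given.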

Additional observations from a re-analysis of the deposited data

Results flagged for a closer look

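Among 66 groups of 4 libraries checked for a library far from the others, 5 were found. The cut-off gives about 1 in 20 where values are normally distributed and groups are not chosen by value. The genes here were chosen on their values, so that rate does not apply to them. ConR S11 held 119.8 CPM of Et_1B_010594 and 136.1 CPM of Et_1A_005785, far above the other ConR libraries. LCR S3 held 1.574 CPM of Et_2A_016790, LCR S1 held 0.3186 CPM of Et_1B_011468 and LCS S5 held 0.2609 CPM of Et_3B_028239, each below the rest of its group and the last 2 on 3 reads or fewer.

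The calcium difference differed between roots and shoots (edgeR interaction, adjusted p below 0.05) in 8 named genes. The log2 value, LCR vs ConR minus LCS vs ConS, was -5.202 for Et_1B_010594, -4.905 for Et_1A_005785, -3.911 for Et_3A_024147, -4.6 for Et_9B_064428, -1.728 for Et_3B_029790 and -1.62 for Et_3B_028239. For the genes set aside it was -2.356 for CBP11 (Et_3A_023424) and -2.581 for CBP12 (Et_3B_027891). These genes were chosen on the same differences, so the values are a description. All of them include ConR S11.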

How the results depend on the processing

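The count of members called in LCR vs ConR was 55 at an adjusted p below 0.01, in place of 121, and 66 to 132 with 1 library left out. In LCS vs ConS it was 2 at 0.01, 12 at 0.1, 2 when the log2 fold change also had to reach 1 in size and 3 from the 8 shoot libraries alone, in place of 7, and 4 to 11 with 1 library left out. In the interaction it was 16 at 0.01, 62 at 0.1 and 63 with DESeq2, in place of 40, and 26 to 44 with 1 library left out. The counts higher and lower in roots, 111 and 16, were 108 to 112 and 15 to 17 with 1 library left out, and 84 to 114 and 12 to 18 over the other settings. The rule chose 98 to 141 of the 147 again with 1 library left out, 47 when ConS had to reach 2 CPM, and 85 without LCR S3 and ConR S11. The median root ratio was 0.3398 to 0.3634 with 1 library left out, and the median shoot ratio 1.017 to 1.073. Apart from the values above, the other scalings, filters and tools that were run kept these counts within 1.5 times, and the causes of the changes were not tested. The shares of all genes called under these settings are not given, so nothing about the members is read from the changes.

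Of the log2 fold changes of single named genes under the alternatives, 798 kept direction and side of the threshold, 12 no longer passed, 4 newly passed and 11 turned sign, all 11 in tissue contrasts that were not called. Et_3A_024147 (-0.13) turned to 0.051 with upper-quartile normalization and 0.094 without LCR S3 and ConR S11, and ran from -0.42 to 0.10 with 1 library left out, positive without LCS S6 or ConR S11. Et_9B_064428 (-0.07) turned to 0.10 with upper-quartile normalization, 0.093 with limma-voom, and ran from -0.74 to 0.33 with 1 library left out, positive without LCR S2, LCR S4, LCS S8, ConR S11 or ConS S16. No paired analysis was made, because the labels do not say which roots and shoots came from the same plants. The interaction and the comparisons of roots with shoots treated all libraries as independent. Depth limits the 68 members under 0.5 CPM in both shoot groups, of which 2 were called in LCS vs ConS.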
